A study of Rattus rattus with 6 samples.

Results

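The circadian clock genes Bmal1 (also called Arntl), Per1, Per2, Nr1d1 and Dbp were followed in the left ventricle of young and old rats. They were taken by Ensembl identifier from a table of 23976 genes: ENSRNOG00000014448 for Bmal1, ENSRNOG00000007387 for Per1, ENSRNOG00000020254 for Per2, ENSRNOG00000009329 for Nr1d1 and ENSRNOG00000021027 for Dbp. All 5 identifiers were present, and all 5 genes passed the filter on low values, which asked for at least 1 TPM (a relative level per transcript length with a fixed sum per library) in at least 3 libraries. Bmal1 passed it through the young libraries, as most old libraries were below 1 TPM for this gene. The pairing of identifier and symbol was given with the list of genes. The reference table used here, of 32100 Rattus rattus genes, held all 5 symbols (Bmal1 as Arntl) but 0 of the Ensembl identifiers in the file, so the pairing could not be checked against it. For the same reason the tissue label could not be checked against heart marker genes, and no other clock gene could be named.

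The animals were untreated, wild type male rats of the Wistar-Kyoto strain, an inbred line of Rattus norvegicus, although the labels name the species Rattus rattus. The young group was 3 months old and the old group 24 months, with 3 animals and 3 libraries in each. RNA came from whole ventricular tissue, in which fewer cells of a type and less RNA per cell cannot be told apart. The labels give no time of day at which the hearts were collected. Because clock transcripts change over the day, an effect of age and a difference in collection time cannot be told apart in these samples.

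The clock is a loop of transcription factors. BMAL1 pairs with CLOCK, binds E-box sequences and switches on Per1, Per2, Nr1d1 and Dbp. PER proteins, together with CRY proteins, then inhibit the BMAL1 and CLOCK pair, while NR1D1 (REV-ERB alpha) represses the Bmal1 gene itself. Bmal1 transcript therefore peaks when Nr1d1 and Dbp are low, and the reverse, in most tissues with a running clock. Heart muscle cells keep their own clock, which is known to time metabolic and ion channel genes over the day.

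Levels are given on 2 scales, because the libraries differed in how much of their total TPM was left for genes such as these. Most of every library went to 15 very abundant genes, whose means over the libraries reached 1000 TPM or more. All other genes shared 6.39%, 10.6% and 10.5% of TPM in young replicates 1, 2 and 3, and 5.84%, 6.05% and 5.08% in the old libraries OH1, OH2 and OH5, which are called by the names of their columns. The old libraries could not be tied to single old animals of the labels. Rescaled TPM leave these 15 genes out and bring what remains to 1000000 in each library. The median log2 fold change of old over young was -0.53 over all genes tested on the deposited scale and -0.04 on the rescaled scale, so a change on the deposited scale should be read against that common shift. Ratios of genes within a library, also given below, do not depend on the scale. The third young library stood apart from the other young libraries in 3 of the 5 clock genes, as the values show. Fits without it are given beside those that leave out another library. It stands apart in these very genes, so leaving it out raises their differences and narrows their errors by construction, and no call rests on that fit.

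Bmal1, the activator of the loop, was lower in every old library than in every young library. Its deposited level was 3.67, 4.77 and 2.47 TPM in young replicates 1, 2 and 3, and 1.26, 0.845 and 0.555 TPM in OH1, OH2 and OH5. The groups did not overlap, and young replicate 3 was the lowest of the young libraries. On this scale 54.2% of all tested genes had groups that did not overlap and were lower in old. Rescaled, Bmal1 stood at 57.4, 44.8 and 23.5 in young and at 21.6, 13.98 and 10.9 in old. The groups again did not overlap, but the lowest young library lay close to the highest old library. After rescaling, 18.4% of all tested genes were separated in this direction. The group means were 41.9 ± 17.1 in young and 15.5 ± 5.50 rescaled TPM in old (SD, n = 3).

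The log2 fold change of Bmal1 on the rescaled scale was -1.34 ± 0.34 (SE), which missed the threshold with a limma adjusted p of 0.0581 (limma-trend on log2 of the level plus 1, Benjamini-Hochberg adjustment over 9487 genes, threshold 0.05). Of all 9487 fold changes it was the 19th lowest, a rank among genes past a filter that Bmal1 met through the young libraries. With no filter other than a value above 0, the change was the same and the limma adjusted p was 0.117 over 18126 genes. On the deposited scale Bmal1 fell, by 1.28 on the log2 scale (SE 0.21), with a limma adjusted p of 6.57e-06 over 9502 genes. In that fit 46.8% of the genes passed the threshold and were lower in old. That fit takes its error mostly from a spread shared by all genes (91.8 prior degrees of freedom, against 4.22 after rescaling). When 1 library was left out, the rescaled change passed only without young replicate 3 (-1.70 ± 0.28, limma adjusted p 0.0391). In the other 5 such fits it was -1.59 to -1.07, with limma adjusted p values of 0.0836 to 0.159.

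**Figure D1:**
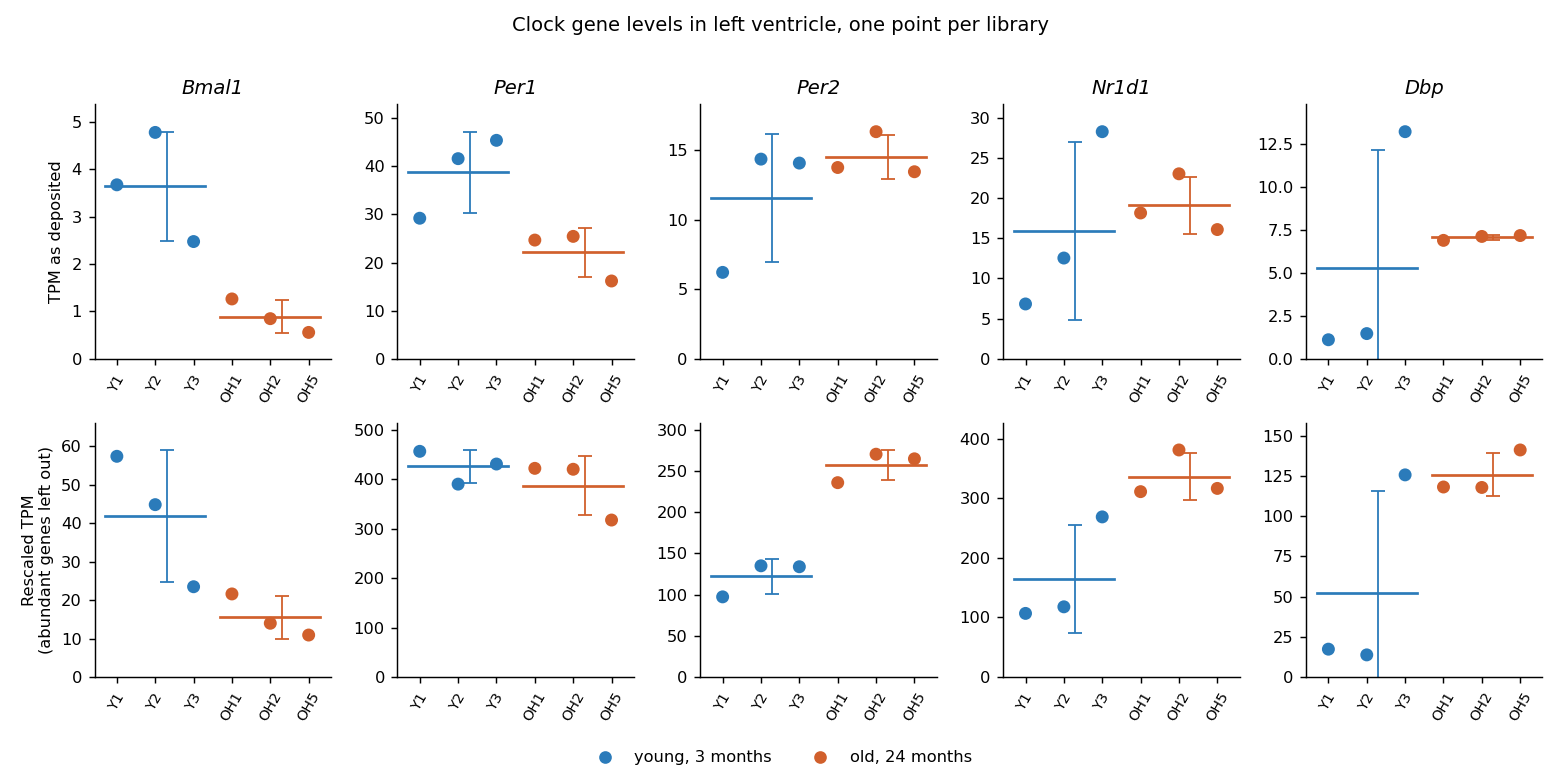
Level of each clock gene in each library, as deposited TPM (upper row) and as rescaled TPM (lower row), for young replicates 1 to 3 (Y1 to Y3, blue) and the old libraries (orange). Horizontal lines are group means and error bars 1 SD (n = 3; the bar of young Dbp runs below 0 and ends at the axis); the 3 old Bmal1 points lie below the 3 young ones in both rows, and the 3 old Per2 points lie above the young ones in the lower row only.

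Per2 and Per1 encode the repressors of the loop, and they differed in how they stood with age. Per2 was at 6.22, 14.4 and 14.1 deposited TPM in young and at 13.8, 16.4 and 13.5 in old, and these groups overlapped. Rescaled, Per2 was at 97.3, 135.0 and 133.9 in young and at 236.0, 270.5 and 264.9 in old. Every old library was then above every young library, as in 11.3% of all tested genes, and no young library stood near the old ones. Per2 rose on the rescaled scale, from 122.1 ± 21.4 to 257.1 ± 18.5 (SD, n = 3), a log2 fold change of 1.08 ± 0.15 with a limma adjusted p of 0.0113. It was the only one of the 5 genes past the threshold in that fit. It passed in all 6 fits that left out 1 library, with limma adjusted p values of 0.0149 to 0.0475. With TPM as deposited the Per2 change was 0.38 ± 0.31, and the call was lost (limma adjusted p 0.247).

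Per1, which is also induced by glucocorticoid and cAMP signals, was the most abundant of the 5 genes in every library. It stood at 29.2, 41.6 and 45.4 deposited TPM in young and at 24.7, 25.4 and 16.2 in old. On that scale every old library was below every young one and Per1 fell, with a log2 fold change of -0.79 ± 0.33 (limma adjusted p 0.0456), against a median of -0.53 over all genes. Of all genes tested on that scale, 54.2% had groups that did not overlap and were lower in old. The share past the threshold and lower in old was 46.8%. Rescaled, the values were 457.0, 390.5 and 431.3 in young and 422.5, 420.6 and 317.8 in old. These groups overlapped, and the log2 fold change was -0.15 ± 0.15 (limma adjusted p 0.597). The call on Per1 thus held only with the 15 abundant genes kept in the total.

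Nr1d1, the nuclear receptor that represses Bmal1, stood at 6.82, 12.5 and 28.3 deposited TPM in young and at 18.2, 23.0 and 16.1 in old. The young values spanned the old ones. Rescaled, Nr1d1 was at 106.8, 117.8 and 268.7 in young and at 311.1, 381.0 and 316.5 in old. Each old library was above each young one, as in 11.3% of all tested genes. Young replicate 3 was nearer to the old libraries than to the other young ones. The rescaled log2 fold change was 1.15 ± 0.32 and missed the threshold (limma adjusted p 0.0705). Of the 6 fits that left out a library, it passed only without young replicate 3 (1.57 ± 0.14, limma adjusted p 0.012). The other 5 gave 0.91 to 1.20, with limma adjusted p values of 0.151 to 0.177. On the deposited scale with all libraries it was 0.45 ± 0.33 (limma adjusted p 0.209).

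Dbp, a transcription factor of the PAR bZIP family that carries clock output to D-box genes, gave the widest spread. Its deposited level was 1.11, 1.46 and 13.2 TPM in young and 6.89, 7.12 and 7.17 TPM in old. The old libraries were nearly level, whereas young replicate 3 was above all of them and the other young libraries were below all of them. Rescaled, Dbp was at 17.3, 13.7 and 125.5 in young and at 118.0, 117.7 and 141.0 in old, and young replicate 3 lay among the old libraries. The rescaled log2 fold change was 1.96 ± 0.70 and missed the threshold (limma adjusted p 0.138), although it was the 26th highest of 9487. It passed without young replicate 3 (2.94 ± 0.15, limma adjusted p 0.00158) and missed the threshold in the other 5 fits that left out a library, at 1.39 to 2.00 with limma adjusted p values of 0.243 to 0.295. On the deposited scale the change was 0.94 ± 0.31 and passed (limma adjusted p 0.0166), with an error that again rests mostly on the spread shared by all genes.

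**Figure D2:**
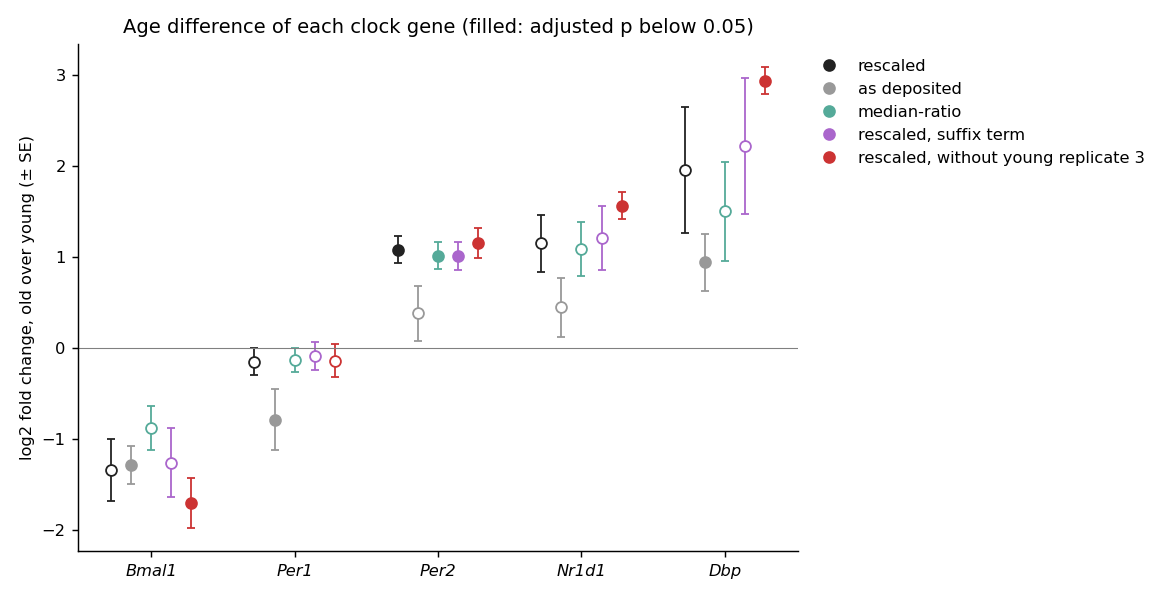
Log2 fold change of old over young (vertical axis, ± SE) for each clock gene under 5 settings, with filled points for a limma adjusted p below 0.05. Bmal1 and Per1 are below 0 and Per2, Nr1d1 and Dbp above 0 in all of the settings drawn; 1 gene passes on the rescaled scale (black; 6.07% of all tested genes pass), and 4 pass without young replicate 3 (red; 2.04% of all), the library that stands apart in these genes.

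The young libraries differed among themselves most in Dbp, Nr1d1 and Bmal1. The highest young library exceeded the lowest by 9.14-fold for Dbp, 2.52-fold for Nr1d1 and 2.44-fold for Bmal1 on the rescaled scale, where the median gene differed by 1.27-fold. These ranges were wider than those of 99.9%, 98.1% and 97.8% of tested genes. The corresponding ranges were 1.39-fold for Per2 and 1.17-fold for Per1. Among the old libraries, Dbp ranged over 1.20-fold, Nr1d1 over 1.22-fold, Per2 over 1.15-fold and Per1 over 1.33-fold, against a median gene of 1.19-fold. Bmal1 was the most variable of the 5 in old ventricle, over 1.98-fold, a wider range than that of 97% of genes. It was also the lowest of the 5 there, at 1.26, 0.845 and 0.555 deposited TPM, and the share is over genes of all levels. How far the low level widened this range was not tested. Whether the spread of these genes differed between the ages was not tested.

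The order of the 5 levels was also shared by young replicate 3 and the old libraries. In these 4 libraries Per1 was highest, followed by Nr1d1, Per2, Dbp and Bmal1, on the deposited scale, which is per transcript length. In OH5 the first pair did not differ by much, with Per1 at 16.2 and Nr1d1 at 16.1 TPM. In young replicates 1 and 2 Bmal1 was above Dbp, by 3.32-fold and 3.26-fold. In young replicate 3 Dbp was above Bmal1 by 5.35-fold, and in OH1, OH2 and OH5 by 5.46-fold, 8.42-fold and 12.9-fold. By group means, the young order was Per1 (38.7 ± 8.47 TPM), Nr1d1 (15.9 ± 11.1), Per2 (11.6 ± 4.63), Dbp (5.26 ± 6.89) and Bmal1 (3.64 ± 1.15; SD, n = 3). Below Per1 each neighbour in this order differed from the next by less than the larger SD. In old ventricle the order was Per1 (22.1 ± 5.15 TPM), Nr1d1 (19.1 ± 3.57), Per2 (14.5 ± 1.59), Dbp (7.06 ± 0.150) and Bmal1 (0.887 ± 0.355), where Per1 and Nr1d1 differed by less than the larger SD and the lower 3 genes by more.

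The balance of the 2 sides of the loop was read within each library as the log2 ratio of Bmal1 to the mean log2 level of Per1, Per2, Nr1d1 and Dbp. This ratio was -0.73, -1.10 and -3.16 in young replicates 1, 2 and 3, and -3.51, -4.26 and -4.50 in OH1, OH2 and OH5. All old libraries were lower than all young libraries. Young replicate 3 was 2.06 below the nearest young library and 0.35 above the nearest old one. The means were -1.66 ± 1.31 in young and -4.09 ± 0.52 in old (SD, n = 3), a difference of -2.43, or 5.37-fold less Bmal1 relative to the 4 other genes in old ventricle. The difference was -3.18 without young replicate 3 and -1.53 with 1 TPM added to each level. No p value is given for this ratio, because the genes were chosen with earlier results of these data known.

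Taken gene by gene, Bmal1 was lower in old relative to each of the other 4 genes, and in no case did the groups overlap. The 4 ratios share Bmal1, whose own groups do not overlap, and so are not separate results. Divided by each of 9480 tested genes in turn, Bmal1 gave groups that did not overlap for 60.3% of them, and was lower in old in 5717 of those 5718 ratios. The log2 ratio of Bmal1 to Per2 was -0.76, -1.59 and -2.51 in young and -3.45, -4.27 and -4.60 in old, with 0.94 between the nearest libraries of the groups. For Nr1d1 the young ratios were -0.90, -1.39 and -3.52 and the old ones -3.85, -4.77 and -4.86, with a gap of 0.33. For Dbp they were 1.73, 1.71 and -2.42 in young and -2.45, -3.07 and -3.69 in old. The gap for Dbp was only 0.03, between young replicate 3 and OH1. For Per1 they were -2.99, -3.12 and -4.20 in young and -4.29, -4.91 and -4.86 in old, with a gap of 0.09. The old minus young differences of these ratios were -1.25 for Per1, -2.49 for Per2, -2.56 for Nr1d1 and -3.41 for Dbp.

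**Figure D3:**
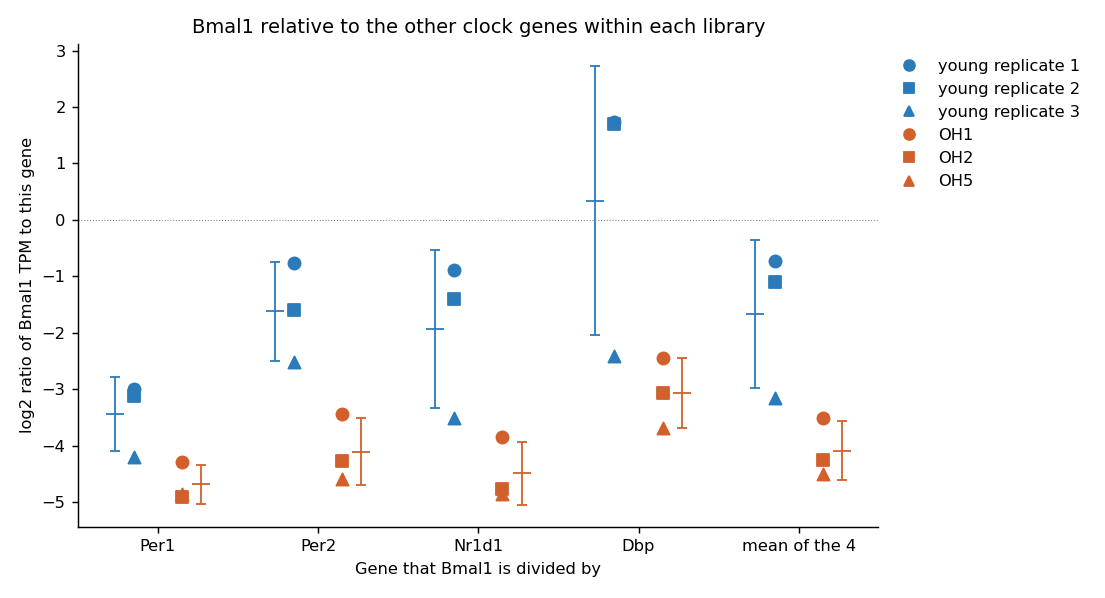
Log2 ratio of Bmal1 TPM to each of the other clock genes and to the mean of the 4 (horizontal axis), with 1 symbol per library and group mean ± SD beside the points. In every column the orange old libraries lie below the blue young ones, and young replicate 3 (blue triangle) lies nearest to them.

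Among the other 4 genes, the ratios of Per1 to Per2 and to Nr1d1 gave groups that did not overlap. Rescaled Per2 and Nr1d1 had groups that did not overlap on their own, as did 29.7% of all tested genes. The share for Per1 divided by every tested gene was not computed, so these ratios are a description only. The log2 ratio of Per1 to Per2 was 2.23, 1.53 and 1.69 in young and 0.84, 0.64 and 0.26 in old, with no overlap and a mean difference of -1.24. The ratio of Per1 to Nr1d1 was 2.10, 1.73 and 0.68 in young and 0.44, 0.14 and 0.01 in old, a mean difference of -1.31, again with no overlap. Per2 and Nr1d1 kept closer to each other, with log2 ratios of -0.13, 0.20 and -1.005 in young and -0.40, -0.49 and -0.26 in old. These overlapped, as did the ratios of Dbp to Per1, Per2 and Nr1d1.

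Each column name closes with _1 or _2, a suffix the labels do not explain. It is _1 for OH1 and for the first and the third young library, and _2 for the rest. The Bmal1 ratio to the 4 genes was lower in old within both suffixes, with an old minus young difference of -1.56 for _1 and -3.28 for _2. Within the suffixes the rescaled Per2 difference was 1.04 and 0.98, that of Nr1d1 0.87 and 1.55, that of Dbp 1.31 and 3.14 and that of Bmal1 -0.74 and -1.78. Each suffix holds a single library of 1 age, so no test was made within it. When the model also held a term for the suffix, Per2 still passed (1.01 ± 0.15, limma adjusted p 0.0352).

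Against all genes, the 5 clock genes were counted as follows. On the rescaled scale 1 of 5 passed the threshold, where 576 of 9487 genes (6.07%) did, 2.66% higher and 3.42% lower in old. Of the 5 genes, 3 had groups that did not overlap (Per2 and Nr1d1 higher, Bmal1 lower), where 29.7% of genes did, 11.3% higher and 18.4% lower. Over the 5 genes the median log2 fold change was 1.08, and over all tested genes -0.04. On the deposited scale these medians were 0.38 and -0.53. With TPM as deposited, 3 of 5 passed, Dbp higher and Bmal1 and Per1 lower, where 47.7% of 9502 genes did, 0.884% higher (84 genes) and 46.8% lower (4449 genes). The share of calls that are higher is thus set by the scale, with 252 higher and 324 lower after rescaling. With TPM as deposited, 2 of 5 genes had groups that did not overlap (Bmal1 and Per1, both lower), a share below the 55% of all genes (0.81% higher, 54.2% lower). A list of 5 genes chosen with results known supports no statement that the clock stands apart from other genes.

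**Figure D4:**
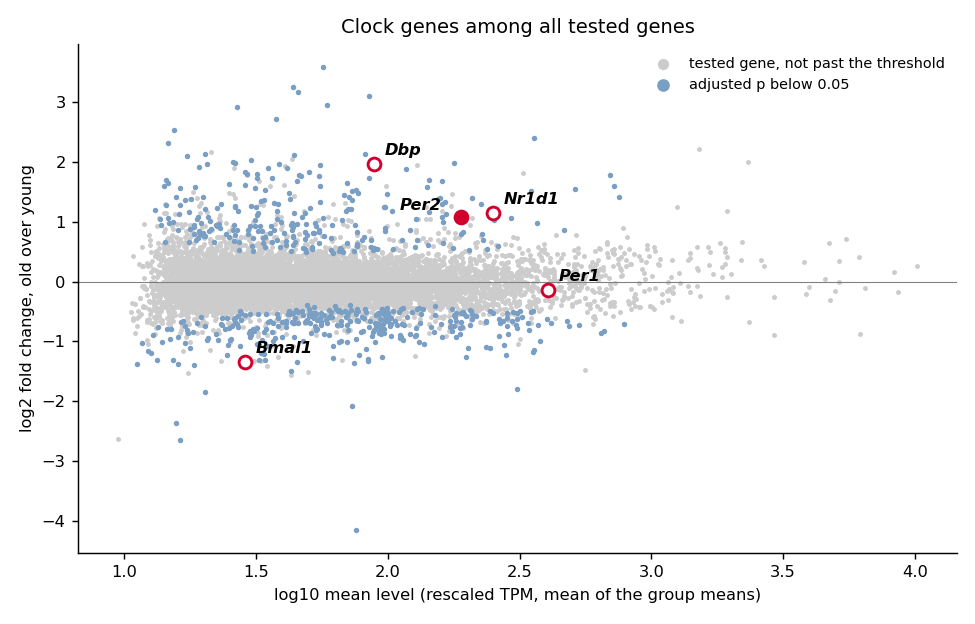
Log2 fold change of old over young (vertical axis) against the log10 mean rescaled TPM (horizontal axis) of the 9487 tested genes, with the clock genes as red circles, filled where past the threshold. Dbp, Nr1d1 and Per2 lie near the upper edge and Bmal1 near the lower edge of the cloud at their level, Per1 lies inside it, and only Per2 is filled.

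The genes whose levels most resembled those of Bmal1 and Dbp over the 6 libraries were found by the Pearson correlation of log2 rescaled levels, as a description over 9487 genes. The closest to Bmal1 were ENSRNOG00000013733 (r = 0.992) and ENSRNOG00000028521 (r = 0.992). ENSRNOG00000028521 stood at 102.3, 91.8 and 69.0 in young and at 67.9, 61.3 and 56.2 rescaled TPM in old. The closest to Dbp were ENSRNOG00000019383 (r = 0.997) and ENSRNOG00000059801 (r = 0.991). ENSRNOG00000019383 repeated the pattern of Dbp, at 31.5, 27.9 and 64.2 in young and at 60.04, 58.6 and 66.5 in old, with young replicate 3 again among the old libraries. Between the ages none of the 4 passed (limma adjusted p 0.113 to 0.354). The files pair no symbol with these identifiers. With 6 libraries and this many genes, correlations of this size were picked as the highest and carry no test.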

How the data were processed

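Per the labels' protocols, total RNA was cleared of ribosomal RNA, and stranded libraries were read from both ends on 2 models of Illumina instrument. The instrument model was not a term in any fit, so a difference between the models was not tested. Per the submitters' processing notes, Salmon and the build mRatBN7.2 were used; neither a version nor the annotation used is stated there. The authors deposited TPM for 23976 genes, with a sum of 1000000 per library, so depth is unknown and no counting interval could be given.

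Young columns were matched to samples by the individual number in their names. Old columns were assigned to the group alone. Genes with at least 1 TPM in at least 3 libraries were kept, those averaging 1000 TPM or more were left out, and the rest were rescaled. limma-trend (limma 3.58.1, R 4.3.3) was run on log2(rescaled TPM + 1) with age as the only term. The pseudocount of 1 understates the change of low genes, Bmal1 on the deposited scale above all. Fold changes are old over young on that log2 scale. Ratios of genes used deposited TPM without a pseudocount. P values rest on the spread between these libraries, drawn toward a spread shared by all genes. That shared part had 4.22 prior degrees of freedom after rescaling and 91.8 on the deposited scale.

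The genes, gene lists and tests were chosen with earlier results of these data known. Other clock genes, immediate early, glucocorticoid-responsive and cell type marker lists had been set by symbol and could not be matched. The genes named were the 5 clock genes, and the 2 most correlated with each of Bmal1 and Dbp among genes averaging 5 rescaled TPM or more. Alternatives were the deposited scale, median-ratio scaling, a pseudocount of 0.1, no filter, the column suffix as a term and leaving out each library. Added after the data were seen were the deposited scale with a pseudocount of 0.1 and leaving out genes of at least 100 TPM before rescaling.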

Additional observations from a re-analysis of the deposited data

How the results depend on the processing

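Over 13 alternatives, 54 of 65 values of the 5 genes kept their direction and their side of the threshold. Only Per2 had passed in the rescaled fit, so for the other genes keeping their side meant missing the threshold again. A further 9 values kept direction and passed where the rescaled fit had not. Another 2 (Per2 on the deposited scale) kept direction and missed it, and none reversed. For genes whose groups do not overlap, leaving out a library cannot reverse the direction. Dropping the filter leaves each fold change as it was. On the deposited scale, the log2 fold changes that crossed the threshold were -1.28 for Bmal1, -0.79 for Per1, 0.38 for Per2 and 0.94 for Dbp, with 3 clock genes and 4533 genes past it. With a pseudocount of 0.1 on that scale they were -1.94, -0.81, 0.42 and 1.29, with 3 clock genes and 4477 genes. The cause was not tested. No filter other than a value above 0 gave 334 genes (180 higher, 154 lower), and a model term for the column suffix gave 174 (109 higher, 65 lower). Leaving out 1 library gave 67 to 453 genes and 1 to 4 clock genes, with fewer samples in each fit; the lowest count of genes came without OH1 and the 4 clock genes without young replicate 3. The log2 fold change then ran from -1.70 to -1.07 for Bmal1, from 0.91 to 1.57 for Nr1d1 and from 1.39 to 2.94 for Dbp, and without young replicate 2, young replicate 3, OH1, OH2 or OH5 the count of all genes was 226, 194, 67, 286 or 163. The Bmal1 ratio to the 4 genes ran from -3.18 to -1.96. No paired analysis was possible because the old columns could not be tied to numbered old samples. Depth is unknown, so what it limits cannot be stated.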
